A study of Homo sapiens with 3 samples.

Results

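The S100 genes encode small calcium-binding proteins. The 10 described here are S100A2, S100A4, S100A6, S100A8, S100A9, S100A10, S100A11, S100A14, S100A16 and S100P, chosen from the 43316 gene names of the array by their symbols, each with every non-control probe that carries the symbol. Their values in these cells were known when they were chosen, so everything below on how they differ between the lines is a description and carries no test. H1975 (NCI-H1975) is a non-small cell lung cancer cell line that carries mutant EGFR and is sensitive to osimertinib, an inhibitor of mutant EGFR. OR1 and OR2 are osimertinib-resistant lines that were selected independently, from different flasks of H1975, by raising the osimertinib dose in steps to 2 μmol/L over 4 months. All 3 lines were grown in RPMI medium with fetal bovine serum, and the total RNA of each was hybridized to 1 array, with no replicate. OR1 and OR2 are thus single selected lines, each compared with the same H1975 array, and differences between cultures of a line cannot be told apart from differences between the lines.

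S100 proteins hold calcium through EF-hand loops, mostly act as dimers, and change shape on binding calcium so that they can grip a target protein. They have no enzyme activity of their own. Inside the cell they bind myosin, annexins and other cytoskeletal or membrane proteins, and some are released and bind receptors such as RAGE (AGER) and TLR4. Most S100 genes lie side by side on the long arm of chromosome 1, in the band that also holds the genes of the epidermal barrier. S100P lies on chromosome 4. Several are widely used as markers of epithelial, mesenchymal or myeloid cells, and the family is often altered in lung and other cancers.

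Values are given as the scanner's background-corrected intensity of a probe, in arbitrary units. A ratio compares a probe between 2 arrays after each intensity has been divided by the 75th percentile of its own array, which was 157, 138 and 162 in the order H1975, OR1, OR2. The error given with a ratio is the technical SD of the log2 ratio, from the scanner software's error estimate. It covers a spot's measurement and no difference between cultures. A gene was called up-regulated at a ratio of at least 2 and down-regulated at a ratio of at most 0.5. A probe's intensity says nothing about how abundant its mRNA is beside that of another probe. Each of the 10 genes was well above background on every array, S100A11 with 2 probes and each of the others with 1. No spot was saturated.

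S100A4 was the 1 gene of the 10 that was higher in both resistant lines, by more than 6-fold. S100A14, S100A9 and S100P were lower in both, by 7.72-fold to 73.4-fold. The remaining 6 genes stayed between the ratios of 0.5 and 2 in OR1, and in OR2 all of these but S100A11 did. In both lines together, 1 of 10 genes was up-regulated, where 5.09% of the 22417 genes well above background on at least 1 array were, and 3 of 10 were down-regulated, where 6.32% were. Because the values of these contrasts were known when the genes were chosen, nothing is read from the counts against those shares.

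S100A4 (NM_002961), also known as metastasin or fibroblast-specific protein 1, binds non-muscle myosin heavy chain and is known for its part in cell motility. Its probe lies at chr1:153516198-153516257 (hg19, minus strand). The H1975 array gave 1284, OR1 7075 and OR2 8975. The resistant lines lay close together and far above H1975. Relative to H1975 this made a ratio of 6.28 for OR1 and 6.80 for OR2, or 2.65 ± 0.20 and 2.77 ± 0.20 on the log2 scale (technical SD). OR1 stood at 0.924 of OR2, a difference under 1 technical SD. Under the 10 other ways of scaling, correcting or filtering the intensities the ratio ran from 4.16 to 6.49 in OR1 and from 6.54 to 7.61 in OR2.

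S100A14 (NM_020672), a member found mainly in epithelial cells, gave the lowest ratios of the 10. Its probe lies at chr1:153587006-153587065 (hg19, minus strand). The H1975 array gave 1672, OR1 20.0 and OR2 33.9. H1975 was bright, and both resistant lines were dim, where the dimmest intensity called well above background was 11.4 in OR1 and 12.6 in OR2. Expression was 73.4-fold lower in OR1 and 50.6-fold lower in OR2 (log2 ratios of -6.20 ± 0.27 and -5.66 ± 0.24). These low intensities leave the size of the ratio open to the background correction. With normexp correction, which adds an offset to every intensity, the ratios were 0.0491 in OR1 and 0.0512 in OR2, in place of 0.0136 and 0.0198.

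S100A9 (NM_002965) encodes the larger chain of calprotectin, the S100A8/S100A9 heterodimer that neutrophils and monocytes hold in large amounts and that stressed epithelia also make. The probe spans an intron, with ends at chr1:153330874-153333143 (hg19, plus strand). The H1975 array gave 429, OR1 29.6 and OR2 44.7, so again H1975 stood apart from both resistant lines. The ratios were 0.0787 and 0.101 for OR1 and OR2 (log2 ratios of -3.67 ± 0.24 and -3.30 ± 0.23), and 0.208 and 0.212 with normexp correction. S100A8 (NM_002964; chr1:153362548-153362607, hg19, minus strand), which encodes the partner chain, did not follow S100A9. H1975 gave 59.4, OR1 78.1 and OR2 50.2. S100A8 was at a ratio of 1.5 in OR1 and at 0.824 in OR2. OR1 was above H1975 by more than 2 technical SD, whereas H1975 and OR2 were within 2 technical SD of each other. With scaling on spike-in probes the OR1 ratio of S100A8 was 0.993, so the higher value in OR1 rests on the scaling.

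S100P (NM_005980), named after placenta, is a member that binds ezrin and IQGAP1 and, once released, RAGE. Its probe lies at chr4:6698819-6698878 (hg19, plus strand), away from all the other 9 genes. The H1975 array gave 909, OR1 84.8 and OR2 121. H1975 was the highest, and OR1 and OR2 did not differ beyond 2 technical SD. S100P expression was 9.39-fold lower in OR1 and 7.72-fold lower in OR2 (log2 ratios of -3.23 ± 0.21 and -2.95 ± 0.21). With normexp correction the ratios were 0.168 and 0.189.

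**Figure D1:**
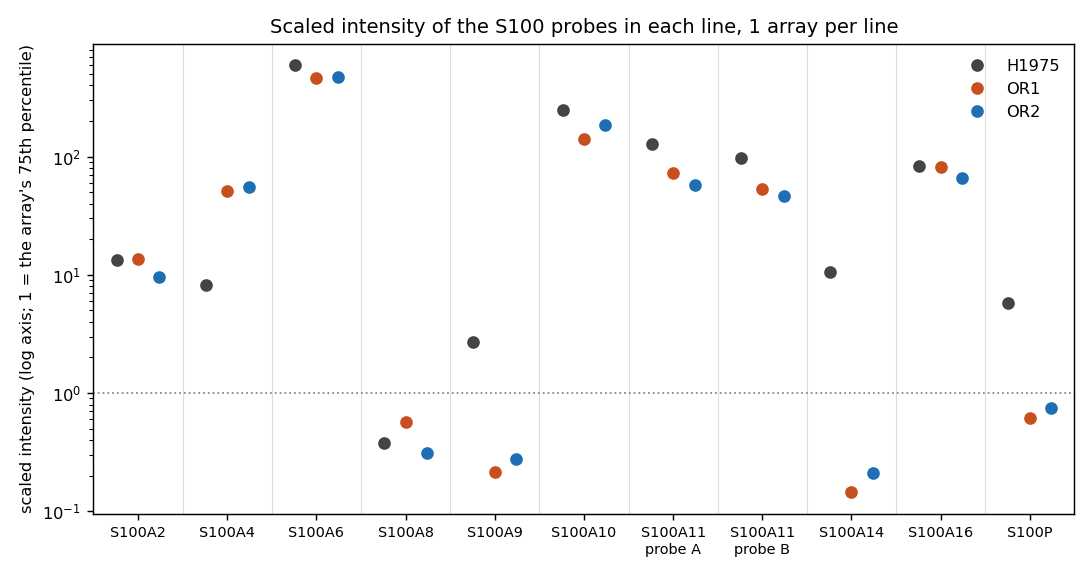
Scaled intensity of each S100 probe (log axis; 1 is the array's 75th percentile) in H1975, OR1 and OR2, 1 point per array and no replicate. S100A4 stands at 8.16, 51.2 and 55.5 in that order, whereas the OR points of S100A9, S100A14 and S100P lie far below H1975; heights of different probes cannot be compared.

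The stretches before the start sites of these 4 genes are shown because theirs are the transcripts that differed most between H1975 and both resistant lines. Each is the 250 bases before the transcript start in RefSeq, on GRCh38.p14, written 5′ to 3′ on the gene's own strand. Capitals mark TATAAA (the core of a TATA box), CACCTG (an E-box that SNAI and ZEB repressors read) and TGANTCA (an AP-1 site), on either strand, so that CACCTG on the other strand reads as CAGGTG. The regions are chr1:153545807-153546056 (minus strand) for S100A4, chr1:153616326-153616575 (minus strand) for S100A14, chr1:153357604-153357853 (plus strand) for S100A9 and chr4:6693628-6693877 (plus strand) for S100P.
S100A4: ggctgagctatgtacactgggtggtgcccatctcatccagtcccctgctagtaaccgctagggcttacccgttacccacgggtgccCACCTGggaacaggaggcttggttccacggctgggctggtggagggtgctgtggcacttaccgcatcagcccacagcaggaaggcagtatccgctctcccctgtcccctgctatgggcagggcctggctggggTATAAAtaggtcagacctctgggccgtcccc
S100A14: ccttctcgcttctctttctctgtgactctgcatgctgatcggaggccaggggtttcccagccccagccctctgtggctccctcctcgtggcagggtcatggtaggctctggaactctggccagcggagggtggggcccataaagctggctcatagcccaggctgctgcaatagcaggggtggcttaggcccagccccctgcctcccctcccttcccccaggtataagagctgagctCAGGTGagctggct
S100A9: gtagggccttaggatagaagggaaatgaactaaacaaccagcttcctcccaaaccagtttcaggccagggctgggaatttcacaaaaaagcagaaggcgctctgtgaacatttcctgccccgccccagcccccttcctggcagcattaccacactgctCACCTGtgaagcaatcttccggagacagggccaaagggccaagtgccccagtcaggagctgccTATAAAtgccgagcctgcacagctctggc
S100P: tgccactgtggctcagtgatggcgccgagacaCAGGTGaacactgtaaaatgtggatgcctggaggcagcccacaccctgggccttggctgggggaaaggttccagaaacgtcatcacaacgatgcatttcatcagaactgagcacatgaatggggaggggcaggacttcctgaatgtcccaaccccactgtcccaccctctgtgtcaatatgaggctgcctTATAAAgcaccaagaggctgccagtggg
TATAAA stood 31 bases before the start of S100A4, 29 before that of S100A9 and 28 before that of S100P, counted to its first base, and was not in the S100A14 window. Only this exact run was searched. Variants of it, such as the tataag in the S100A14 window, were not counted. Of all 35116 RefSeq windows of this length, 3763 held TATAAA on either strand. All 4 windows held CACCTG, which 17.5% of all windows held: its first base was at -164 in S100A4, -14 in S100A14, -92 in S100A9 and -218 in S100P. The gene that was higher and the 3 that were lower in the resistant lines thus shared this motif. TGANTCA, in 6.57% of all windows, was in none of the 4. No matches overlapped. All 10 genes had a window, and S100A2 and S100A16 had 2 each and S100A8 had 3. Among the other 6 genes TATAAA was found for S100A8 and CACCTG for S100A2, S100A8 and S100A16, while S100A2 had the 1 TGANTCA match, at -52. The windows of S100A6, S100A10 and S100A11 held none of the motifs. They had 24, 24 and 15 CpG, against 7 for S100A4, 4 for S100A9, S100A14 and S100P, and a median of 11 over all windows. The windows of the remaining genes were also low in CpG, with 3 and 4 for S100A2, 6 and 1 for S100A16, and 2 in each window of S100A8. A match is a run of letters and was not tested as a binding site.

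S100A11 (NM_005620), also called calgizzarin, binds annexin A1. It was the gene nearest to a threshold. Its probes adjoin each other at chr1:152005160-152005219 and chr1:152005219-152005278 (hg19, minus strand). The first gave 20297 for H1975, 10077 for OR1 and 9275 for OR2, and the second gave 15394, 7350 and 7549 in the same order. Both probes were brighter in H1975 than in either resistant line. The ratios of the first probe were 0.566 in OR1 and 0.445 in OR2, and those of the second 0.545 and 0.477. The difference from H1975 was over 2 technical SD in both lines, whereas OR1 and OR2 were within it. S100A11 was called down-regulated in OR2, just inside the ratio of 0.5, and was just outside it in OR1. Of the 10 S100 genes 3 were thus down-regulated in OR1, where 9.58% of all genes were, and 4 in OR2, where 8.70% were. Those called up-regulated were 1 of 10 in each line, where 9.17% and 7.72% of all genes were. With quantile normalization the second probe was at 0.557 in OR2, and with spike-in scaling the probes were at 0.375 and 0.360 in OR1, so the call of S100A11 depends on the scaling in both lines.

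S100A10 (NM_002966), or p11, does not bind calcium and forms a tetramer with annexin A2 that takes plasminogen and its activator to the cell surface. Its probe lies at chr1:151955420-151955479 (hg19, minus strand). The H1975 array gave 38921, OR1 19383 and OR2 29836. OR1 had a ratio of 0.568 and OR2 of 0.746. H1975 was above OR2 by just over 2 technical SD, and OR2 and OR1 were not separated by as much. With the authors' normalized values the OR2 ratio of S100A10 was 0.919. With no scaling its OR1 ratio was 0.498 and with spike-in scaling 0.376, both past 0.5, so its OR1 call depends on the scaling too.

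S100A6 (calcyclin), S100A16 and S100A2 varied least in the comparison of both lines with H1975. S100A6 (NM_014624; chr1:153507255-153507685, hg19, minus strand) binds the calcyclin-binding protein CACYBP. H1975 gave 93018, OR1 63210 and OR2 76823, with ratios of 0.775 and 0.804. No 2 neighbouring lines in that order differed by more than 2 technical SD, which for these bright probes is a ratio of 1.33. S100A16 (NM_080388; chr1:153579675-153579734) gave 13038, 11253 and 10662, with ratios of 0.984 and 0.796, again with neighbours within 2 technical SD. S100A2 (NM_005978; chr1:153533831-153533890), a member of basal epithelial cells, gave 2116, 1866 and 1552. OR1 had a ratio of 1.01 and OR2 of 0.714, with OR2 below H1975 by more than 2 technical SD. The OR1 ratios of S100A2 and S100A16 lay so near 1 that their side of it changed with the scaling, from 0.666 with spike-in scaling to 1.04 for S100A2 and from 0.652 to 1.04 for S100A16.

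**Figure D2:**
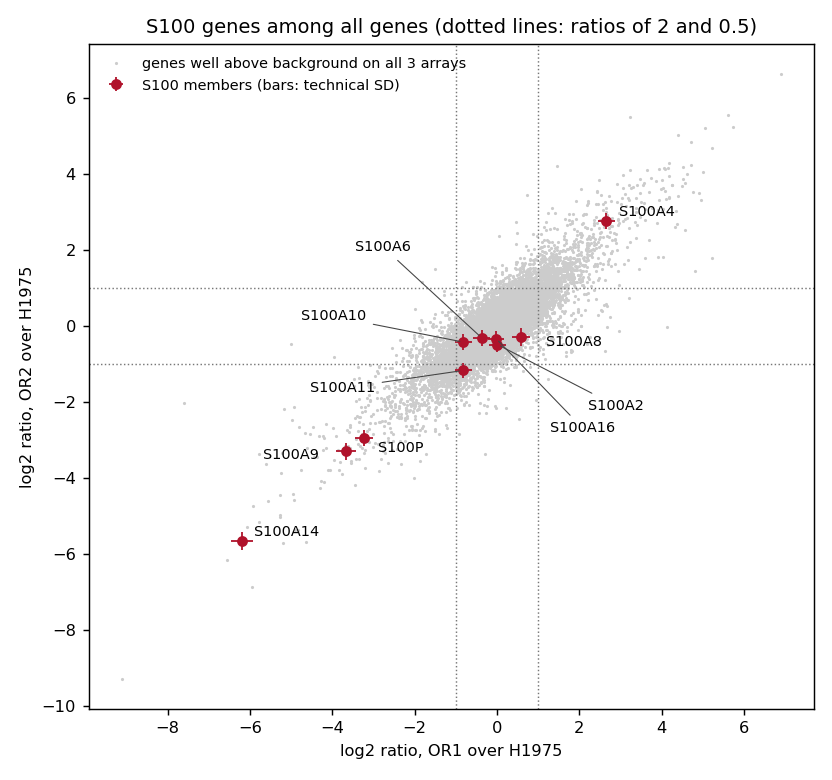
Log2 ratio in OR2 against log2 ratio in OR1, both over the same H1975 array, for the 18589 genes above background on each of the 3 arrays (grey) and for the 10 S100 genes (red, brightest probe, bars for the technical SD). S100A4 lies at 2.65 and 2.77, S100A14 at -6.20 and -5.66, and 6 genes lie within the dotted lines in OR1.

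Directly compared, OR1 and OR2 gave ratios from 0.690 for S100A14 to 1.82 for S100A8, and none of the 10 genes reached 2 or 0.5, where 2.89% of genes were at least 2-fold higher in OR1 and 2.48% at least 2-fold higher in OR2. The ratio was 0.776 for S100A9, 0.822 for S100P and 0.924 for S100A4. With spike-in scaling the OR1 over OR2 ratios of S100A9, S100A10 and S100A14 were 0.487, 0.478 and 0.433, which is past 0.5. Over the 10 genes the log2 ratio to H1975 had a median of -0.59 for OR1 and -0.45 for OR2, beside 0.03 and -0.05 over the 18589 genes. In OR1 7 of 10 genes were below a ratio of 1 and in OR2 9 of 10, where 47.7% and 53.9% of all genes were. Spike-in scaling shifted the median of all genes by -0.60 in OR1 and 0.08 in OR2 on the log2 scale, so that ratios near 1 in OR1 are read relative to that.

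**Figure D3:**
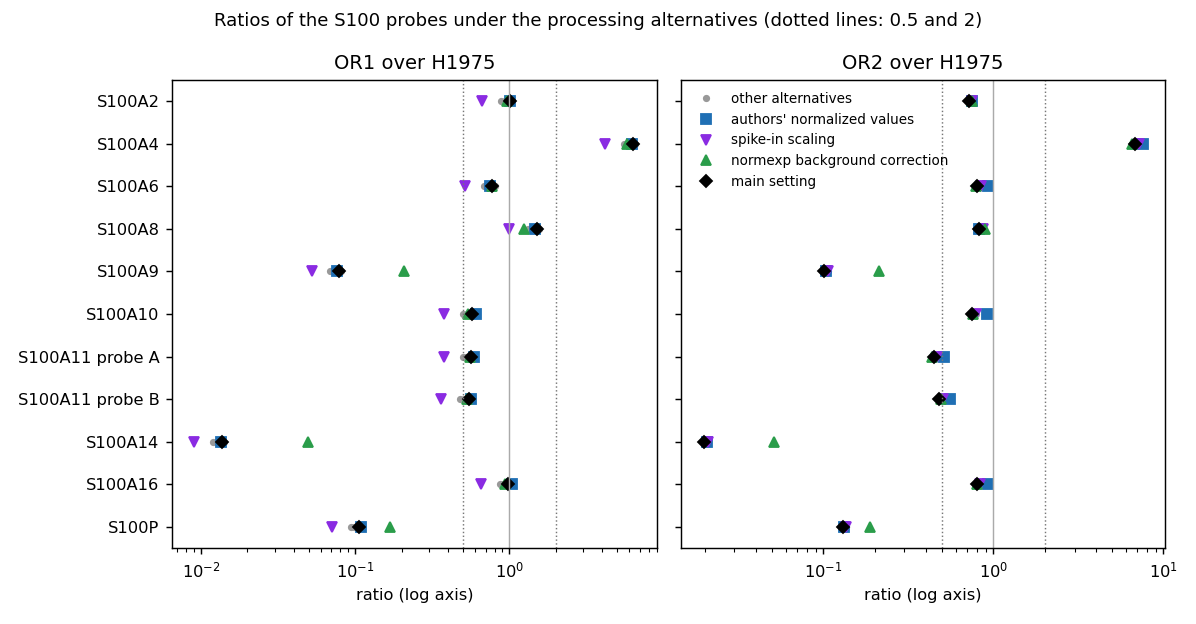
Ratios of the 11 S100 probes to H1975 in OR1 and OR2 (log axes) with the main setting and under 10 alternatives of scaling, background correction or filtering; probes A and B of S100A11 are those starting at the lower and the higher position. S100A4 stays above 2 and S100A9, S100A14 and S100P below 0.5 under each of them, with normexp correction closest to 1 for the last 3. The background filters could not move these ratios, since every member was well above background on all arrays.

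The array carries 21 S100 genes, and the 11 not among the 10 were measured in the same way. Every array had S100A3, S100A5 and S100A13 well above background, while the other 8, S100A1, S100A7, S100A7A, S100A7L2, S100A12, S100B, S100G and S100Z, were so on none. S100A3, which binds zinc and is known from the hair cuticle, was up-regulated in both lines. H1975 gave 567, OR1 2248 and OR2 2480, with ratios of 4.52 and 4.26. S100A5 gave 41.9, 50.2 and 49.3, and its ratios were 1.37 and 1.15. S100A13, which takes part in the release of fibroblast growth factor 1, gave 31230, 15613 and 21155 and ratios of 0.570 and 0.659. None of the 3 was down-regulated, where 9.58% of all genes were in OR1 and 8.70% in OR2. S100A3 was the 1 up-regulated in both lines, where 5.09% of all genes were. With so few genes nothing is read from these counts. At a ratio of 1.5 S100A13 was called down-regulated in both lines.

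Fused-type S100 proteins, such as filaggrin and trichohyalin, carry an S100 domain at the head of a long repeat and build the cornified layer of skin. Of 7 such genes, FLG and TCHH passed the background limit on some array and none did so on all 3. The brightest TCHH probe gave 81.0 in H1975 and was not well above background in OR1 (9.76) or OR2 (11.7), so its expression was at most 0.160 of H1975 in OR1 and at most 0.152 in OR2. A dimmer TCHH probe went the other way in OR1, at least 5.34-fold higher than H1975, and the probes of this gene disagree. FLG gave 8.03 for H1975, 32.9 for OR1 and 9.35 for OR2, and was at least 2.98-fold higher in OR1 than in H1975 and at least 3.05-fold higher in OR1 than in OR2. For the other FLG probes above background the bound in OR1 over H1975 was 3.08 and 10.4.

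Along chromosome 1, S100 genes with large ratios had close neighbours without. The probe of S100A4 lies between those of S100A5, 3.551 kb away, and S100A3, 3.741 kb away, and the probe of S100A6 is 4.903 kb from that of S100A5. Of these 4 adjacent genes, S100A4 and S100A3 were up-regulated in both lines and S100A5 and S100A6 were not. S100A14, the lowest of all, lies 7.272 kb from S100A16 and 4.22 kb from S100A13, whose ratios ran from 0.570 to 0.984. S100A9 is followed by S100A12, which was not well above background, and then by S100A8. S100A10 and S100A11, which had like ratios in OR1, are 49.681 kb apart at the other end of the stretch.

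The whole stretch between the outermost S100A probes of the array, chr1:151955420-153604335 on hg19, is 1.649 Mb long and holds 55 other genes, among them LCE and SPRR genes of the epidermal barrier. Of these, 21 passed the background limit on at least 1 array and 15 on all 3, with medians of -0.12 for OR1 and -0.21 for OR2 on the log2 scale, beside 0.03 and -0.05 over all genes. With spike-in scaling the OR1 median was -0.72. FLG-AS1, an antisense transcript at the filaggrin gene, was up-regulated in both lines, with intensities of 34.4, 132 and 213 and ratios of 4.37 and 6.04. The genes down-regulated in both lines, named after their values were seen, were IVL (involucrin), SPRR1B and SPRR3, which encode precursors of the cornified envelope. They were 3 of the 21, where 6.32% of all genes were down-regulated in both lines. FLG-AS1 was 1 of the 21, where 5.09% were up-regulated in both. Nothing is read from these counts. IVL and SPRR1B passed the background limit in H1975 alone. Other SPRR genes were not called, such as SPRR1A with ratios of 1.08 and 0.863 and SPRR2D with 1.05 and 0.747. IVL gave 159 in H1975 and was not well above background in either resistant line, at most 0.0815 of H1975 in OR1 and at most 0.0770 in OR2. SPRR3 gave 294, 11.7 and 14.6, at most 0.0453 of H1975 in OR1 and 0.0485 in OR2. SPRR1B was at most 0.153 and at most 0.145 of H1975. By the ratio in the less changed line, the highest of the 15 after FLG-AS1 were CR933683, with ratios of 1.60 and 1.26, and ENST00000429352, with 1.23 and 0.583. The lowest were SPRR2F, with 0.620 and 0.561, LCE5A, with 0.717 and 2.05, and LCE1C, with 0.780 and 0.650. The intensities of ENST00000429352, CR933683 and LCE5A were at most 41.7 on any array.

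**Figure D4:**
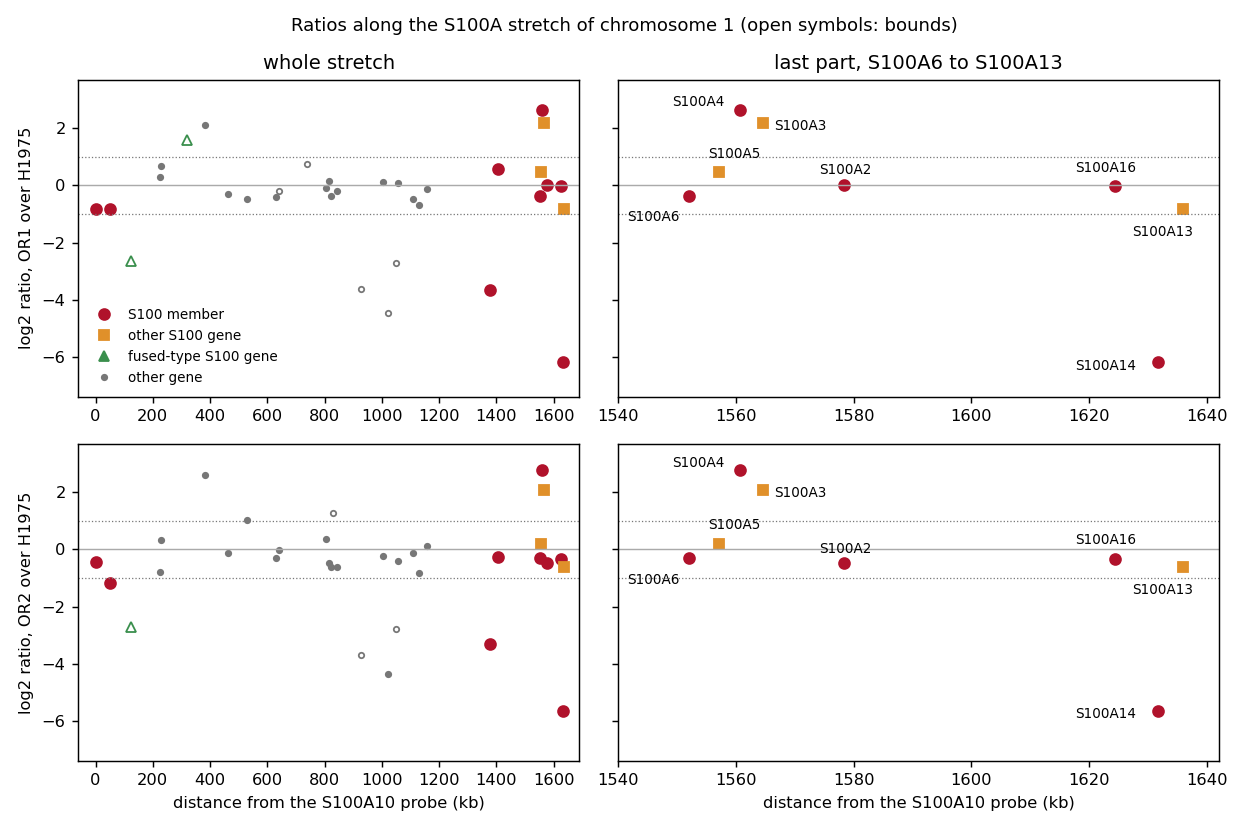
Log2 ratio to H1975 in OR1 (top) and OR2 (bottom) against the distance of each gene's probe from the S100A10 probe, for genes well above background on at least 1 array whose ratio is a value (filled) or a bound (open); the right panels enlarge the last part. S100A4 and S100A3 lie above 2 on this scale beside S100A6, S100A5 and S100A2 near 0, and S100A14 lies below -5 beside S100A16 and S100A13.

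Of 23 genes whose products bind S100 proteins or act with them, 22 passed the background limit on at least 1 array and 20 on all 3. ANXA6 and TLR4 were up-regulated and PLAU was down-regulated in both lines, where 5.09% and 6.32% of all genes were. The 20 had a median log2 ratio of -0.11 for OR1 and -0.08 for OR2, beside 0.03 and -0.05 over all genes. Of the 5 annexins, which bind membranes in calcium and take S100 proteins as partners, ANXA6 alone passed a ratio by its brightest probe. ANXA6 gave 129.7 for H1975, 866 for OR1 and 945 for OR2, with ratios of 7.61 and 7.09. ANXA2, the partner of S100A10, gave 46695, 35312 and 36210, with ratios of 0.862 and 0.755, and a dimmer ANXA2 probe gave 1.05 and 0.841. A dimmer probe of ANXA11 was at 1.02 and 2.53, with intensities of only 18.2 for H1975, 16.3 for OR1 and 47.3 for OR2. Another of its dimmer probes was at 0.522 and 0.902, and its brightest was at 0.934 and 1.30. AHNAK, a large scaffold that binds the complex of S100A10 and annexin A2, had ratios of 1.19 and 1.41, and its dimmer probes reached 1.63 and 2.08.

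PLAU, the urokinase plasminogen activator, gave 45562 for H1975, 9338 for OR1 and 16219 for OR2. Its ratios were 0.234 and 0.346, and 0.192 and 0.356 on its second probe. The urokinase receptor PLAUR was at 0.711 and 0.698, the tissue plasminogen activator PLAT at 0.679 and 0.933, and plasminogen itself (PLG) was at background on every array. Of the 4 genes of the plasminogen system as listed here, with AHNAK, that were above background on some array, 1 was thus down-regulated in both lines, where 6.32% of all genes were, and none up-regulated, where 5.09% were.

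Among the 5 receptors, TLR4, which calprotectin binds, was below the background limit on the H1975 array (2.58) but above it in OR1 (131) and OR2 (27.8). TLR4 was at least 11.9-fold higher in OR1 and at least 2.15-fold higher in OR2 than in H1975, and 1 of its other probes gave bounds of 6.80 and 1.97. The OR2 call of TLR4 was lost with quantile normalization, normexp correction and the authors' normalized values. AGER, the gene of RAGE, gave 116, 94.0 and 78.1, with ratios of 0.924 and 0.655. BSG, a receptor of S100A9, was at 2.10 in OR1 and 1.67 in OR2, and CD36 was at least 2.71-fold higher in OR1 and not well above background in H1975 or OR2. None of the 8 cytoplasmic and nuclear targets passed a ratio in either line by its brightest probe. Of all genes, 9.17% were up-regulated and 9.58% down-regulated in OR1, and 7.72% and 8.70% in OR2. Among the 8 are MYH9 (non-muscle myosin, the target of S100A4), CACYBP (of S100A6) and EZR and IQGAP1 (of S100P). A dimmer probe of MYH9 was at 2.07 and 1.02.

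**Figure D5:**
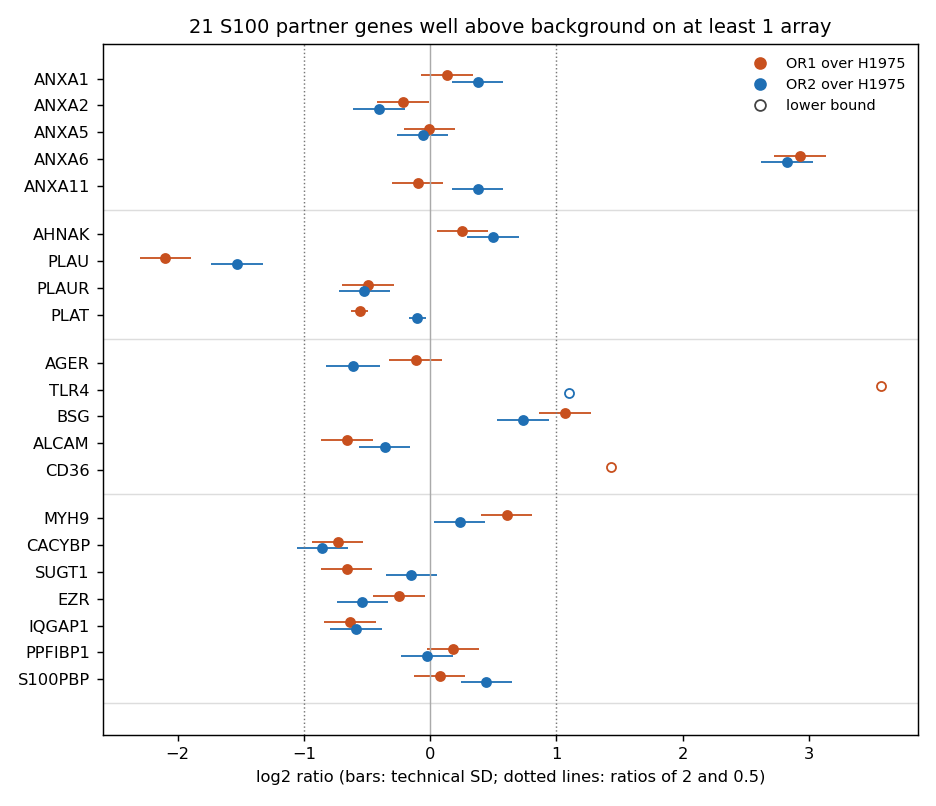
Log2 ratios to H1975 of 21 S100 partner genes well above background on at least 1 array, by their brightest probe, in the order annexins, plasminogen system and scaffold, receptors, and cytoplasmic and nuclear targets; bars are technical SDs and open circles lower bounds. ANXA6 and TLR4 lie to the right of the dotted lines in both lines and PLAU to the left.

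Genes with the pattern most like that of S100A4 were found by the distance between their pairs of log2 ratios (OR1 and OR2) among 18575 other genes that were above background on every array. The nearest were FADS3, with ratios of 6.09 and 6.53, VSTM2L, with 6.03 and 6.50, and CTF1, with 6.74 and 6.82, and 13 genes lay within a distance of 0.25. For S100A14 the nearest were PCSK5, with ratios of 0.0149 and 0.0254, the transcript ENST00000439784, with 0.0106 and 0.0139, and SPINT1, with 0.0181 and 0.0279. No gene lay within 0.25 of S100A14. That distance is near the technical SD of its own log2 ratios, 0.27 in OR1 and 0.24 in OR2. Genes that fell to background in a resistant line were not compared, so the count does not set S100A14 apart. Each likeness rests on 3 arrays.

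The cell type labels were set against marker genes. Every array had all 6 epithelial markers well above background, and 4 of 6 were down-regulated in both lines, together with S100A14, where 6.32% of all genes were. The summed intensity of the 6 was 390544, 147897 and 172181 in the order H1975, OR1, OR2. This sum and those below are of unscaled intensities and weigh bright probes most. In H1975 the largest terms were KRT19 with 149897, KRT7 with 131484 and KRT18 with 74998. EPCAM had ratios of 0.0370 and 0.0725, CDH1 (E-cadherin) 0.0205 and 0.0800, KRT7 0.164 and 0.170 and KRT19 0.463 and 0.492. KRT8 and KRT18 stayed between 0.806 and 1.12 by their brightest probes, and a dimmer KRT8 probe was at 0.673 and 0.634. Of the lung markers, SFTPB was at background throughout, SFTPC gave 24.0, 79.6 and 120 with ratios of 3.78 and 4.87, NAPSA gave 37.2, 25.1 and 59.8, and NKX2-1 gave 832, 184 and 1167. Of 8 myeloid markers listed, which bear on S100A8 and S100A9, 5 were found on the array by their symbols. ITGAM and MPO were at background throughout, PTPRC gave 21, 20.7 and 20.5, and CSF3R gave 29.7, 46.6 and 35.6. CD14 gave 264, 984 and 1779, against the direction of S100A9. It made up most of the summed intensity of the 3 well above background, which was 315, 1052 and 1835. Of the 6 fibroblast markers, which bear on S100A4, 3 were well above background on some array, and their summed intensity was 663, 674 and 95.0. COL1A1 gave 461, 585 and 86.8. COL1A2 gave 200, 28.3 and 5.65, the last not well above background. LUM was above background in OR1 alone, at least 5.43-fold over H1975. The fibroblast sums include the values that were not well above background. The part of these genes in the S100 values was not tested. In RNA of a whole culture, fewer cells that express a gene and less of its RNA per cell cannot be told apart.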

How the data were processed

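Total RNA of 3 cell lines (H1975, OR1 and OR2, grouped by their labels) was hybridized, 1 array per line, to 1 slide of Agilent single-colour arrays. The authors deposited each array's scanner intensity, corrected for background within the array but left unscaled, and a second table of normalized intensities, whose method is not given in the sources used here. Those values differed from quantile-normalized intensities by a median of 0.000595 on the log2 scale. The submitters' notes name Feature Extraction 9.5.1.1 and the file headers 10.7.1.1. The arrays had 45.6% to 45.9% of 58200 probes well above background, and the number of arrays limits the precision.

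Control probes and outlier spots were left out, log2 intensities were averaged per probe, and the array's 75th percentile was subtracted. A side that was not well above background was set to the higher of its own signal and the dimmest one well above background, which makes the ratio a bound. Counts used the brightest probe per gene. Ratios of 2 and 0.5 follow the methods, without a test. Python 3.11.15, pandas 2.3.3, R 4.3.3 and limma 3.58.1 (for normexp with an offset of 50) were used, and the calls were tested on simulated data. Quantile normalization was computed in Python.

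The members, the gene lists and the ratios were chosen with earlier results of these data known. Named are all members, other and fused-type S100 genes above background on an array, partners past a ratio in both lines with ANXA2, AHNAK, AGER and TLR4, the 3 highest and 3 lowest genes of the chromosome 1 stretch and the 3 genes most like S100A4 and S100A14. Genes added after their values were seen are BSG, CD36, PLAUR, PLAT, PLG, IVL, SPRR1A, SPRR1B, SPRR2D, SPRR3 and the marker genes with values. Added likewise were the dimmer probes of ANXA11 and a dimmer probe each of MYH9 and KRT8. The 13 alternatives changed the scaling, background correction, filters, probe summary or ratio. All 11 member probes carried a RefSeq accession with the same symbol, and no member probe shared a run of more than 18 of its 60 bases with a probe of another gene. The values of 1 partner gene are not reported here, though the counts include it. Positions of probes are those of the files, on hg19.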

Additional observations from a re-analysis of the deposited data

Results flagged for a closer look

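S100A2 and S100A8 lay on opposite sides of H1975 in the resistant lines, with OR1 over OR2 ratios of 1.41 for S100A2 and 1.82 for S100A8. The OR1 ratio of S100A2 to H1975 was 1.01, within 1 technical SD of no difference and below 1 under 4 alternatives, and its OR1 over OR2 ratio was 0.885 with spike-in scaling. That of S100A8 was 1.14 with spike-in scaling, where its OR1 ratio to H1975 was 0.993. The dimmer ANXA2 probe also lay on opposite sides of H1975, with an OR1 over OR2 ratio of 1.25, ENST00000429352 with 2.12 and LCE5A with 0.350. Each of these differences is 1 array against 1 array and was not tested, and the last 2 transcripts were near background.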

How the results depend on the processing

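S100A4 remained the 1 member up-regulated in both lines, and S100A9, S100A14 and S100P remained down-regulated in both, under all 13 alternatives. S100A11 joined them with no scaling, with spike-in scaling and at a ratio of 1.5. Of 330 member ratios recomputed, 275 stayed within 1 technical SD and 55 moved by more, 22 of them with spike-in scaling. No called ratio changed sides of 1. The 275 include 33 with all 3 arrays above background and 33 with no background filter, which could not move. The number of other S100 genes down-regulated in both lines was 0 and became 1 with no background filter or a ratio of 1.5. That of fused-type genes was 1 and became 0 with normexp correction, with all 3 arrays above background or with the median over probes, and 3 with no background filter. That of partners up-regulated was 2 and became 1 with quantile normalization, normexp correction, the authors' values, all 3 arrays above background or a ratio of 4, and 4 at a ratio of 1.5. That of partners down-regulated was 1 and became 3 at a ratio of 1.5 and 0 at a ratio of 4. Of all genes, 1141 were up-regulated in both lines, and 597 with spike-in scaling and 461 with normexp correction, while 1417 were down-regulated, and 705 with normexp correction and 873 with all 3 arrays above background. With no background filter these counts were 2057 and 2437, at a ratio of 1.5 they were 2573 and 2957, and at a ratio of 4 they were 265 and 422, so that the shares beside the S100 counts move with the processing. The OR1 median of the chromosome 1 stretch was -0.12 and became -0.72 with spike-in scaling. The background filters, ratios and probe summary change which genes or probes are counted, and the cause of the other changes was not tested. No paired analysis was possible because each line has 1 array, and for the same reason no array could be left out and no slide block fitted.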
